A study of Homo sapiens and Mus musculus with 19 samples.

Results

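The genes described here encode the machinery that writes, copies, removes and reads DNA methylation: DNMT1, UHRF1, DNMT3A, DNMT3B, TET1, TET2, TET3, TDG and MBD1. These 9 genes were chosen by name and not by a measured value, though with earlier results of these data known. They are 9 of the 15101 autosomal protein-coding genes whose strand and span could be placed on GRCh38. HepG2, a liver line from a hepatocellular carcinoma per the labels, was set against H1ES, a human embryonic stem cell line. Neither line had a named treatment or genotype. Each line was measured in 2 libraries of 1000 cells and in 5 single cells, and a 1000-cell library held 4911898 to 6644517 tags. No label says that the 2 libraries of a line came from separate cultures, and the p-values below therefore reflect library-to-library spread that could be technical. Which column of the deposited values is 5mC and which 5hmC is taken as assigned for this work, since the tables carry no header.

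Cytosine in CpG dinucleotides can be methylated to 5-methylcytosine (5mC). DNMT3A and DNMT3B place new methyl groups, while UHRF1 recognises hemimethylated DNA after replication and brings in DNMT1, which copies the mark. TET1, TET2 and TET3 oxidise 5mC to 5-hydroxymethylcytosine (5hmC) and further, TDG excises the more oxidised bases for repair, and MBD1 is a protein that binds methylated CpG. The assay reads these states at CCGG sites. Each tag marks 1 site as unmethylated, 5mC or 5hmC, and a share is the percentage of a region's tags in that state. How tags were counted is not given, so a tag need not be a separate DNA molecule. Tags report on the DNA of these genes, and neither transcript nor protein was measured.

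The 4 promoter stretches shown here are those of the maintenance pair, whose differences lay at or near a start, and of TET1 and TET2, whose printed CCGG could be measured. Start results of the other members are given without their stretches. They are RefSeq sequences of GRCh38.p14, each with 250 bases before and 50 bases from a listed start, read 5′ to 3′ on the strand of the gene, with CCGG in capitals because only those letters can be measured.
UHRF1, chr19:4909251-4909550, plus strand: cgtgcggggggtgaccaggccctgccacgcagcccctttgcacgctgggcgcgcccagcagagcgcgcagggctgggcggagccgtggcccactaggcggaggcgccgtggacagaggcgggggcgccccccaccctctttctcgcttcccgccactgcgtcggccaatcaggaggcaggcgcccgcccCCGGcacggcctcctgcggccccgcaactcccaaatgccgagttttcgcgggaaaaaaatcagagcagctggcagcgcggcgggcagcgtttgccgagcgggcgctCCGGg
DNMT1, chr19:10194904-10195203, minus strand: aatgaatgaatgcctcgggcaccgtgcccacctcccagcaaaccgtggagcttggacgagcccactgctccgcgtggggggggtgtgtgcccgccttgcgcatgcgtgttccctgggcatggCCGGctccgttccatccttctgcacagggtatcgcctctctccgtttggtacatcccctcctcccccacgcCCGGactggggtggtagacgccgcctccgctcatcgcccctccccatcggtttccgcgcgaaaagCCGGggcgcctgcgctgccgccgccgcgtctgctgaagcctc
TET1, chr10:68560087-68560386, plus strand: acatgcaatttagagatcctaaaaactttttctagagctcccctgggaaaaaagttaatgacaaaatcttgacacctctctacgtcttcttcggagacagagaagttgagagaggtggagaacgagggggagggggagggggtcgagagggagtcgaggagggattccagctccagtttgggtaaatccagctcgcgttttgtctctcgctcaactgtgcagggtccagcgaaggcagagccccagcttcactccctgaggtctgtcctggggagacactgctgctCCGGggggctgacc
TET2, chr4:105145625-105145924, plus strand: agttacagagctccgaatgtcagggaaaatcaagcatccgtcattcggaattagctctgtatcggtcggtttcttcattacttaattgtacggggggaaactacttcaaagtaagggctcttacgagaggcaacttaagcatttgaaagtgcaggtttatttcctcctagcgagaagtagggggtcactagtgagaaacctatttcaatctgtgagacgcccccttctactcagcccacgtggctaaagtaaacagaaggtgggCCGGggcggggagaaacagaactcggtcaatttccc
The UHRF1 stretch holds 2 CCGG and the DNMT1 stretch 3, and no tag fell on any of them in the 4 libraries of 1000 cells. The TET1 and TET2 stretches hold 1 CCGG each, and both carried tags. Tags also fell on a CCGG of DNMT3A and of MBD1 in stretches not shown, and neither site was tested. The DNMT3A site was unmethylated at all 5 tags in HepG2 and all 4 in H1ES. The MBD1 site was unmethylated at 7 of 11 tags in HepG2 and 17 of 18 in H1ES. Of 20 promoter stretches listed for the members, 16 hold at least 1 CCGG (searched as CCGG, which reads the same on both strands), against 63.2% of 33725 autosomal stretches of the same length. A start region is taken below as 2000 bp on each side of the gene's outermost annotated base on its 5′ side, and a body runs from there to the annotated end. Tags were thin near starts, since 44 of the 241 sites in members' start regions carried any tag (18.3%), against 31.5% of 211379 sites in all start regions. In members' bodies 672 of 1081 sites carried a tag (62.2%), against 63.0% of all autosomal sites.

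The lines differed genome-wide, and this sets the background for every gene. Over all autosomal tags, the unmethylated share was 38.6% ± 0.80 in HepG2 and 4.49% ± 0.35 in H1ES, and 5hmC made up 0.249% ± 0.040 of HepG2 tags and 1.61% ± 0.12 of H1ES tags (SD, n = 2 libraries each). Of 10518 gene bodies tested with edgeR's quasi-likelihood test (log2 odds of a state, Benjamini-Hochberg adjusted p under 0.05), 51.8% had less 5mC in HepG2 and 2.72% had more. Start regions of line markers were set beside the labels. HNF4A, a liver transcription factor, was unmethylated at 71.0% and 75.0% of tags in HepG2 and at 0% and 2.94% in H1ES. ZFP42, a stem cell marker, was unmethylated at 9.68% and 21.4% in HepG2 and at 89.7% and 76.1% in H1ES. Of the other 8 markers with a start region, APOH and SERPINA1 were less methylated in HepG2 and L1TD1 in H1ES, DPPA4 missed the threshold, and NANOG, LIN28B, ALB and AFP held too few tags or no unmethylated tag for a test. POU5F1, APOA1 and TTR were not analysed here.

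Against that background most bodies of the machinery genes were densely methylated in HepG2. The median member body held 98.5% 5mC in HepG2 and 96.3% in H1ES, while over all bodies tested the median was 90.0% in HepG2 and 97.5% in H1ES. In HepG2 the DNMT3A body, at a mean of 80.8%, lay below the median of all bodies. Those of UHRF1 and TET3, at 92.4% and 93.0%, lay a little above it. UHRF1 and DNMT3A fell in body 5mC, DNMT3B rose, and the other 6 members did not pass the threshold. The median log2 odds of 5mC was 0.81 over the 9 members and -1.86 over all bodies tested. Odds were also taken relative to each library's own odds over all bodies tested. This moved the median of all bodies by 2.84 log2 units. On that scale 8 of the 9 members rose and none fell, against 35.3% and 24.0% of all bodies. UHRF1 was the member that did not pass on that scale (log2 odds 0.81, adjusted p = 0.128), and DNMT3A then rose (2.22). So the fall in DNMT3A and UHRF1 holds for absolute shares, and its direction turns on the relative scale.

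**Figure D1:**
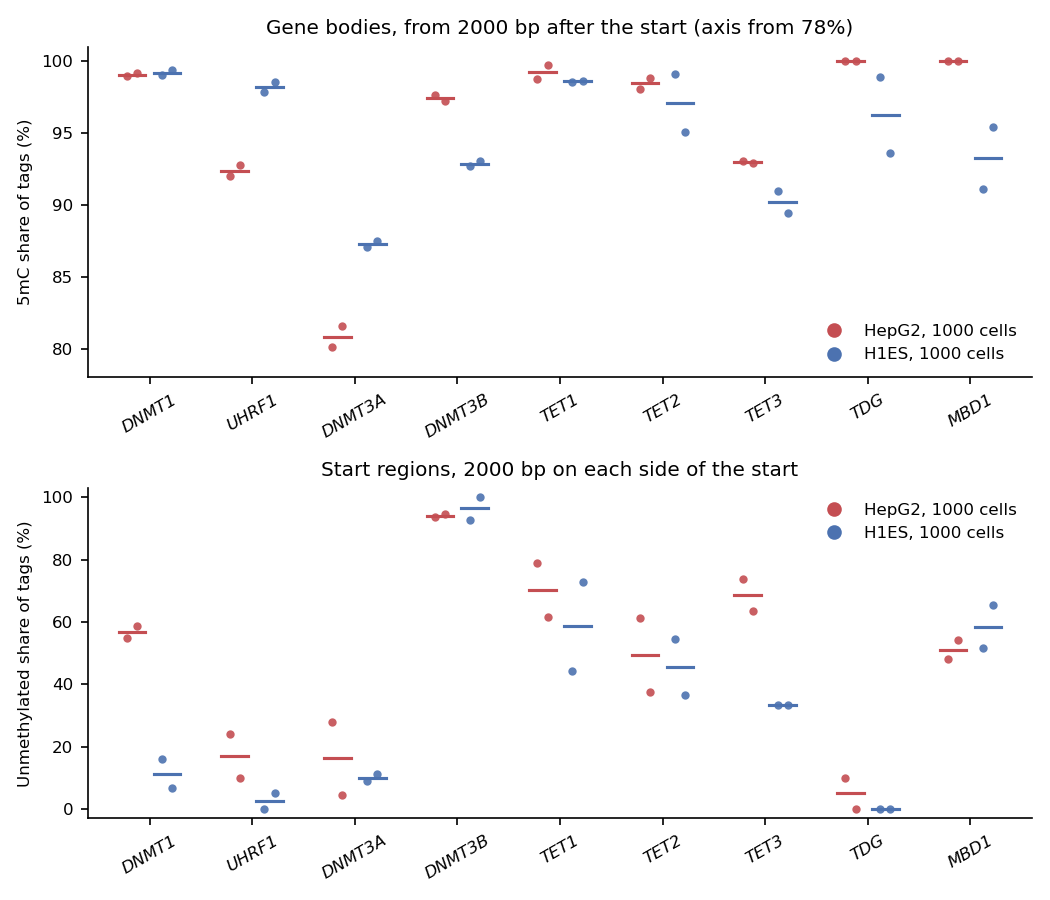
Share of 5mC tags in gene bodies (top, axis from 78%) and share of unmethylated tags in start regions (bottom) for the 9 genes, with a point per 1000-cell library and a line at the mean of each line's 2 libraries, HepG2 left of H1ES. In bodies, UHRF1 and DNMT3A lie lower in HepG2 and DNMT3B higher. In start regions, DNMT1 and TET3 lie higher in HepG2, at means of 56.8% and 68.7%, than in H1ES, at 11.4% and 33.3%.

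DNMT1, the maintenance methyltransferase, had an almost fully methylated body in both lines. The outer parts of its start region were more often unmethylated in HepG2. Body 5mC was 99.0% and 99.2% of tags in HepG2 and 99.0% and 99.4% in H1ES, so the libraries of the lines overlap (log2 odds -0.16 ± 0.79 SE, adjusted p = 0.886). The start region was unmethylated at 54.8% of 31 and 58.8% of 17 tags in HepG2, against 16.1% of 31 and 6.67% of 15 tags in H1ES. Both HepG2 libraries were far above both H1ES libraries, and the start region rose (log2 odds 3.05 ± 0.73 SE, adjusted p = 0.000343). The call rests on both H1ES libraries, as the adjusted p was 0.0614 without H1ES library 1 and 0.0577 without H1ES library 2. The difference lay in the outer parts of the region. From 2000 to 500 bp before the start, 40.0% of 20 HepG2 and 0% of 12 H1ES tags were unmethylated. From 500 to 2000 bp past it the shares were 65.4% of 26 and 12.5% of 32. Within 500 bp of the start, 11 sites held 2 tags a line, all unmethylated. Single sites with an adjusted p here and below were tested at a minimum of 5 tags in every library. At a site 1207 bp past the start, 4 of 8 and 7 of 8 tags were unmethylated in HepG2. None of 17 and none of 7 were in H1ES (edgeR adjusted p = 0.0427). A site 571 bp past the start did not separate the lines, with 4 of 8 tags unmethylated in HepG2 and 4 of 8 in H1ES.

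UHRF1, the partner that brings DNMT1 to replicated DNA, fell in body 5mC. Its body held 92.0% and 92.8% 5mC in HepG2, against 97.8% and 98.6% in H1ES, with no overlap (log2 odds -2.09 ± 0.41 SE, adjusted p = 6.84e-07). Many of the unmethylated tags lay in 1 stretch. In the 5000 bp from 4905001 on chromosome 19, 51.2% of 43 and 54.5% of 33 tags were unmethylated in HepG2, against 2.63% of 76 and 0% of 42 in H1ES (log2 odds 5.84 ± 0.74 SE, adjusted p = 2.41e-06). From 10000 to 20000 bp past the start, by contrast, 0.676% of 148 HepG2 tags and 0.685% of 146 H1ES tags were unmethylated. Within the stretch, every tag was unmethylated in HepG2 at the sites 4927, 5341 and 5459 bp past the start (7, 6 and 7 tags), where H1ES had none of 19, 1 of 13 and none of 17. Nearer the start the sites alternated, with 92.3% of 13 HepG2 tags unmethylated at 3126 bp, 12.5% of 8 at 3529 bp and 0% of 11 at 4485 bp, against 0% of 16, 7.69% of 13 and 0% of 14 in H1ES.

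That stretch ends beside the starts that RefSeq's promoter table lists for UHRF1, of which the outermost, at 4909501, is the one shown above. The gene's annotated span begins 6421 bp further out. Around the edge of the span, the unmethylated share was 24.1% of 29 and 10% of 20 tags in HepG2, against 0% of 15 and 5.00% of 20 in H1ES, which did not pass (adjusted p = 0.0722). Around the outermost listed start it was 13 of 26 tags (50%) and 70.6% of 17 in HepG2, against 2.17% of 46 and 0% of 26 in H1ES, and it rose (log2 odds 6.31 ± 0.93 SE, adjusted p = 2.24e-07), as did 39.2% of 7929 regions placed this way, while 4.4% fell. The gene ARRDC5 spans chr19:4890437-4916820 and so overlaps the whole stretch, and these tags belong to both genes.

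**Figure D2:**
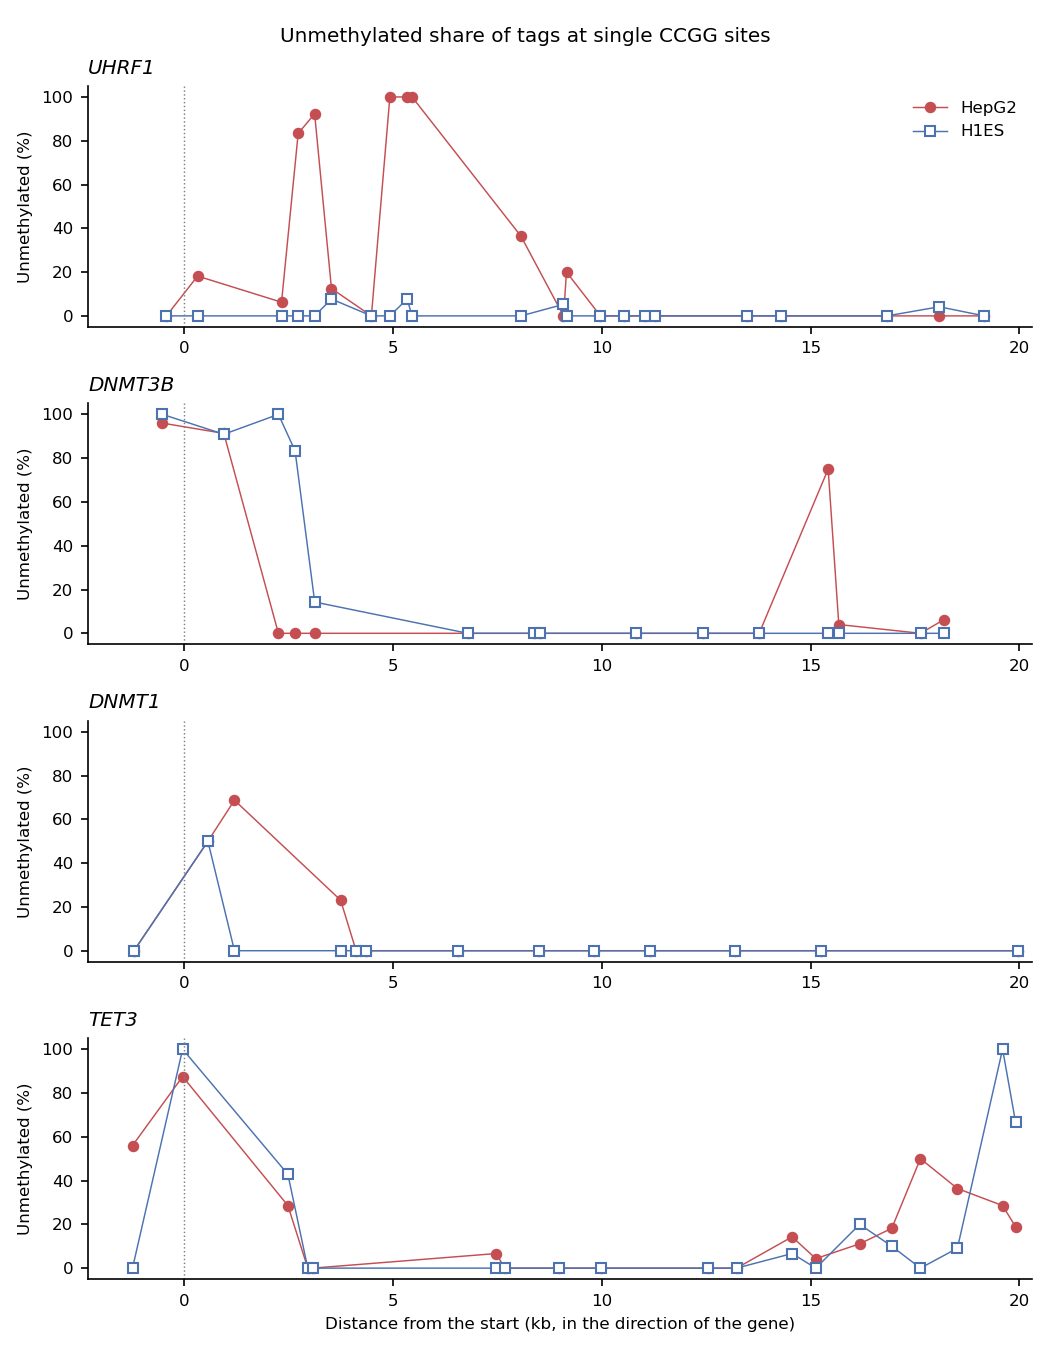
Unmethylated share of pooled tags at single CCGG sites with at least 5 tags in each line, from 2 kb before to 20 kb past the annotated start, for UHRF1, DNMT3B, DNMT1 and TET3 from top to bottom; filled circles are HepG2 and open squares H1ES, and lines only join neighbouring sites. At 5 UHRF1 sites from 2732 to 5459 bp HepG2 is at 83.3% to 100% and H1ES at 0% to 7.69%, and at the DNMT3B sites at 2259 and 2658 bp HepG2 is at 0% and H1ES at 100% and 83.3%.

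DNMT3A, a de novo methyltransferase, was the least methylated member body in both lines. Its 5mC share was 80.1% and 81.5% in HepG2, against 87.1% and 87.5% in H1ES, and it fell without overlap (log2 odds -0.70 ± 0.15 SE, edgeR adjusted p = 9.39e-06; limma adjusted p = 0.161). The unmethylated share of the body was 19.5% and 18.2% in HepG2, against 8.56% and 7.75% in H1ES. In H1ES, 92.5% of all bodies tested held as much 5mC as DNMT3A or more, while in HepG2 59.7% did. The called tiles lay in 2 runs inside the gene, from 25280001 to 25305000 and from 25325001 to 25340000. Of its 21 tiles of 5000 bp with at least 10 tags in every library, 9 rose in the unmethylated share and none fell, against 72.4% rising and 1.32% falling over 121173 tiles tested. The tile from 25285001 was unmethylated at 37.1% of 70 and 37.3% of 75 tags in HepG2, against 0% of 80 and 2.50% of 40 in H1ES (adjusted p = 4.5e-06). The remaining called tile, from 25225001, lies mostly past the gene's end. Among the 12 tiles that did not pass, the mean unmethylated share was 30.8% in HepG2 and 26.3% in H1ES in the tile from 25255001, and 16.4% in HepG2 and 25.8% in H1ES in the tile from 25275001.

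Single sites in DNMT3A went both ways. With at least 5 tags in every library, 27 of its sites could be tested, of which 3 rose and 2 fell in the unmethylated share, against 49.0% and 0.596% of 116609 sites. At a minimum of 10 tags 2 sites of the members could be tested, 1 in DNMT1 and 1 in DNMT3A, and neither passed, against 57.2% rising and 0.824% falling of 5100 sites. At position 25286967 on chromosome 2 the unmethylated share was 12 of 13 and 9 of 11 tags in HepG2, against none of 8 and none of 5 in H1ES (adjusted p = 0.0405). At 25277547, in contrast, it was none of 8 and none of 9 tags in HepG2, against 6 of 7 and 6 of 7 in H1ES (adjusted p = 0.0405). Around the span's own start the shares were 28.0% and 4.55% in HepG2 and 9.09% and 11.1% in H1ES, which overlap (edgeR adjusted p = 0.518). Within 500 bp of that start, all 5 HepG2 and all 4 H1ES tags were unmethylated. The 54 sites from 500 to 2000 bp past it held no tag. All 5mC tags of the start region came from 3 sites 500 to 2000 bp before the start. Around the inner start at 25252315 the unmethylated shares also overlapped. They were 66.7% of 15 and 42.1% of 19 tags in HepG2 and 70.6% of 17 and 14.3% of 7 in H1ES.

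DNMT3B, the other de novo enzyme and one known to be abundant in embryonic stem cells, was the 1 member whose body rose in 5mC on absolute shares. It held 97.7% and 97.2% in HepG2, against 92.7% and 93.0% in H1ES (log2 odds 1.56 ± 0.45 SE, adjusted p = 0.00128), a direction that 2.72% of all bodies shared. The difference sat at the front of the body. Between 2000 and 5000 bp past the start, 0% of 93 tags were unmethylated in HepG2, against 58.6% of 29 in H1ES, and with the body counted from 5000 bp the log2 odds was 0.24 (adjusted p = 0.775). At the site 2658 bp past the start (32765043 on chromosome 20), none of 21 and none of 20 tags were unmethylated in HepG2, against 6 of 7 and 4 of 5 in H1ES (adjusted p = 0.0405). The tile from 32765001 fell in the unmethylated share, at 0% of 66 and 0% of 56 tags in HepG2, against 25.0% of 24 and 40.0% of 15 in H1ES (adjusted p = 8.37e-05).

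The edge of the DNMT3B span did not set the lines apart. The region around it was unmethylated at 93.5% of 31 and 94.7% of 19 tags in HepG2 and at 92.9% of 14 and 100% of 6 in H1ES, and the last of these fell under the 10 tags needed for a test. The 1 start that RefSeq's promoter table lists for DNMT3B lies 17467 bp further in, at 32779852, and the region around it was unmethylated at 5% of 40 and 0% of 31 tags in HepG2 and at 0% of 29 and 0% of 19 in H1ES (adjusted p = 0.284). The sites at -518 bp and 952 bp from the start were unmethylated at 96.0% of 25 and 91.3% of 23 tags in HepG2 and at 100% of 9 and 90.9% of 11 tags in H1ES. Among tagged sites, the unmethylated stretch at the start reached 952 bp in HepG2 and was gone at 2259 bp, while in H1ES it reached the site at 2658 bp. Further in, the tile from 32775001 rose in HepG2, at 16.7% of 36 and 20.6% of 34 tags, against 0% of 21 and 0% of 13 in H1ES (adjusted p = 0.00979), a call that was lost without HepG2 library 2 (0.0568) and without H1ES library 1 (0.0759). Per 1000000 tags of the library, DNMT3B held 76.5 and 66.5 tags in HepG2, against 37.3 and 33.4 in H1ES, a ratio of 2.02. The ratio was 1.47 for TET3 and 1.35 for DNMT3A and lay from 0.842 to 1.02 for the other 6 members. The part of copy number in any of these results was not tested.

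TET1 and TET2, dioxygenases that oxidise 5mC, passed no test of body or start region on absolute shares, while relative to each library the body 5mC of both rose (log2 odds 3.77, adjusted p = 7.0e-07, and 3.75, adjusted p = 0.00199). The TET1 body held 98.8% and 99.7% 5mC in HepG2 and 98.6% and 98.6% in H1ES (adjusted p = 0.325), and 13 of its 17 tiles with at least 10 tags had no unmethylated tag in any library, against 14.3% of all such tiles. The CCGG printed in its promoter, 37 bp past the start, was unmethylated at all 7 tags in HepG2 and all 3 in H1ES. Its start region as a whole was unmethylated at 78.9% and 61.5% in HepG2 and at 44.4% and 72.7% in H1ES, which overlap (adjusted p = 0.374). In TET2 the CCGG printed above, 15 bp past the start, was unmethylated at 12 of 12 tags in HepG2 and 13 of 14 in H1ES. The start region of TET2 was unmethylated at 61.3% and 37.5% in HepG2 and at 54.5% and 36.7% in H1ES (adjusted p = 0.749), so the 2 libraries of a line differed more than the lines did. Another gene model, LOC124900868, overlaps 27136 bp of TET2 with its start region, and TET2-AS1 overlaps 108450 bp.

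Outside TET2 the picture was different. In the 50 kb before its start region, 5mC was 39.3% and 31.5% of tags in HepG2, against 95.6% and 97.4% in H1ES, while the body held 98.1% and 98.9% in HepG2, against 99.1% and 95.1% in H1ES. A like difference lay past the end of TDG, where 5mC was 39.1% and 41.0% in HepG2, against 100% and 100% in H1ES. In all 18 flanks of 50 kb around the 9 members the mean 5mC share of the HepG2 libraries was below that of the H1ES libraries, and in 17 the libraries did not overlap. These flanks lie outside the genes, were not tested, and rest on 30 to 502 tags a library. Over all autosomal tags, mean 5mC was 61.2% in HepG2 and 93.9% in H1ES. Flanks of other genes were not counted, so the count is not read as particular to these genes.

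TET3 differed at its start and in 2 tiles that went opposite ways. The start region was unmethylated at 73.7% of 19 and 63.6% of 22 tags in HepG2, against 33.3% of 15 and 33.3% of 18 in H1ES, and it rose (log2 odds 2.08 ± 0.77 SE, adjusted p = 0.0219). That call was lost when any 1 of the 4 libraries was left out (adjusted p from 0.0608 to 0.136), with DESeq2 (0.0895), and around the outermost listed start, 1279 bp further in, where the share was 27.5% and 28.0% in HepG2 and 31.8% and 41.2% in H1ES (log2 odds -0.55, adjusted p = 0.543). A site at -1234 bp from the start had 5 of 9 and 9 of 16 tags unmethylated in HepG2. In H1ES none of 10 and none of 12 were (edgeR adjusted p = 0.0405). At -34 bp, 87.5% of 16 tags were unmethylated in HepG2 and 100% of 11 in H1ES. These 2 of the 43 sites hold all tags of the start region. Its rise thus came from the site at -1234 bp, and the 2 calls rest on the same tags. In the body, 5mC was 93.1% and 92.9% in HepG2 and 91.0% and 89.5% in H1ES (adjusted p = 0.0630). The tile from 74115001 rose, at 38.9% and 50% in HepG2 against 0% and 0% in H1ES (adjusted p = 0.000302), and the tile from 74030001 fell, at 0% and 0% in HepG2 against 2.22% and 17.9% in H1ES (adjusted p = 0.0226), a call that was lost without any 1 library but H1ES library 1.

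TDG, the glycosylase, and MBD1, the methyl-CpG binding protein, had few tags and no called difference on absolute shares in the edgeR test. Relative to each library the body 5mC of both rose (adjusted p = 0.000354 for TDG and 0.000477 for MBD1), and that of MBD1 also passed with limma (0.00719) and with edgeR's newer dispersion (0.0423), and that of TDG without H1ES library 1 (0.0391). The TDG body held only 5mC in HepG2, with 65 and 61 tags, and 98.9% and 93.7% 5mC in H1ES (adjusted p = 0.0635). None of the 126 HepG2 tags in it was unmethylated or 5hmC, which allows a share of up to 2.38%. Its start region was unmethylated at 1 of 10 and none of 7 tags in HepG2 and at none of 12 and none of 9 in H1ES, and 2 sites at 1677 and 1874 bp past the start hold all of these tags. The TDG region overlaps UQCC6 over 1836 bp. The MBD1 body was 5mC at all 32 and 31 tags in HepG2 and at 91.1% and 95.5% in H1ES (adjusted p = 0.0558). The MBD1 start region, of which 1421 bp overlap CXXC1, was unmethylated at 48.1% and 54.2% in HepG2 and at 51.6% and 65.4% in H1ES (adjusted p = 0.631). This region pools sites that differ by position. From 2000 to 500 bp before the start, 0% of 16 HepG2 and 0% of 14 H1ES tags were unmethylated. Within 500 bp of the start the shares were 71.4% of 28 HepG2 and 78.6% of 42 H1ES tags. At 1 site, a share between 0% and 100% in 1000 cells can come from alleles or from cells that differ. The 2 cannot be told apart there.

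Among start regions, 2 of the 7 members tested rose in the unmethylated share and none fell, against 39.5% and 4.15% of 7945 start regions. The median log2 odds was 1.0 over these 7 members and 1.27 over all start regions. Relative to each library, which moved the median of all start regions by -1.03, DNMT1 rose and none fell, against 22.9% and 10.3% of all. In tiles, 17 of the members' 61 tested tiles rose and 2 fell, against 72.4% and 1.32% of tested tiles. Over tiles with at least 10 tags the same 17 and 2 stand among 96, against 62.0% and 1.13% of 141471, and 35 of the 96 (36.5%) had no unmethylated tag in any library, against 14.3% of all. Of the tiles that rose, the ones from 10195001 in DNMT1, 68555001 in TET1, 73980001 in TET3 and 25225001 in DNMT3A have their middle outside the gene.

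5hmC, the first product of the TET enzymes, had a lower mean share in HepG2 in all 8 member bodies that held any. Bodies of other genes with a lower mean are not counted here, so this is not read as particular to these genes. 5hmC fell in DNMT3A and TET3, or 2 of the 8 members tested (edgeR), against 16.4% of 9680 bodies. The median log2 odds of 5hmC was -2.39 over the 8 members and -2.28 over all bodies. DNMT3A held 5hmC at 0.309% of 972 and 0.231% of 867 tags in HepG2, against 4.34% of 853 and 4.75% of 568 in H1ES (log2 odds -4.05 ± 0.53 SE, adjusted p = 7.57e-12). In H1ES 2.19% of all bodies tested held as much 5hmC as DNMT3A or more. The 64 tags of 5hmC in H1ES came from 39 sites, of which 11 had 5hmC in both libraries, and no site gave more than 5. TET3 held 0.566% of 707 and 0.495% of 606 tags in HepG2, against 3.23% of 589 and 3.99% of 351 in H1ES (log2 odds -2.72 ± 0.58 SE, adjusted p = 8.62e-05).

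The other members' 5hmC rested on a few tags each. DNMT3B held 0.469% and 0.619% in HepG2 and 2.56% and 1.27% in H1ES (adjusted p = 0.180). TET1, which is itself known to be abundant in stem cells, held 0.243% and 0.272% in HepG2 and 1.21% and 1.09% in H1ES (adjusted p = 0.175). For DNMT1 the shares were 0.251% and 0.279% in HepG2 and 0.786% and 0.590% in H1ES, and 82.4% of all bodies tested held as much or more in H1ES. UHRF1 held 0.773% and 0% in HepG2 and 1.52% and 1.06% in H1ES (adjusted p = 0.273). TET2 and TDG had no 5hmC tag in HepG2, which allows up to 1.56% and 2.38%, and 4 each in H1ES. MBD1 had none in either line, which allows up to 4.76% in HepG2 and 4.48% in H1ES. Relative to each library, neither DNMT3A (log2 odds -1.70, adjusted p = 0.618) nor TET3 (-0.34, adjusted p = 0.867) passed, and no body in the genome did, against 505 at an unadjusted p under 0.05.

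**Figure D3:**
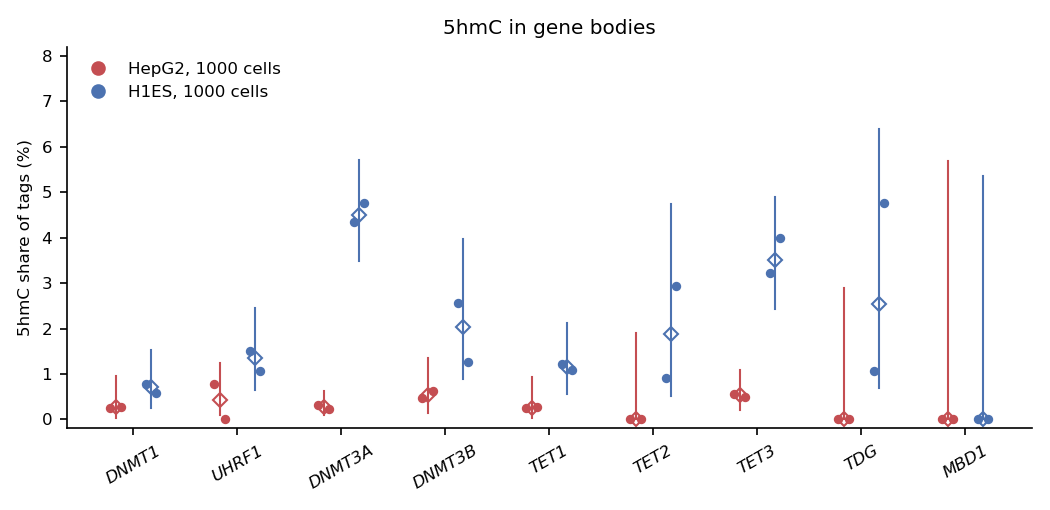
Share of 5hmC tags in gene bodies, with points for the 1000-cell libraries, diamonds for the 2 libraries of a line pooled and bars for the exact 95% interval of the pooled share (counting error only), HepG2 left of H1ES. DNMT3A and TET3 stand highest in H1ES, at pooled shares of 4.5% and 3.51%, and every HepG2 value is under 1%.

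The 5 single cells of each line were compared without a test, because cells from an unnamed number of cultures count as 1 sample a line. In the UHRF1 stretch from 4905001, 61.8% of the 55 tags of the HepG2 cells were unmethylated (exact 95% interval 47.7 to 74.6, counting error only), against 2.22% of the 45 tags of the H1ES cells (0.0562 to 11.8). By cell, the shares were 0% of 2, 85.7% of 7, 66.7% of 15, 37.5% of 8 and 65.2% of 23 tags in HepG2, and 9.09% of 11 tags in 1 H1ES cell and 0% of 4 to 14 tags in the other 4. The DNMT3A body was unmethylated at 16.8% of 1114 tags in HepG2 cells (14.6 to 19.1) and at 7.25% of 579 in H1ES cells (5.28 to 9.68). The lowest HepG2 cell, at 14%, was above the highest H1ES cell, at 11.8%. 5hmC in that body was 0.359% of tags in HepG2 cells (0.0979 to 0.917) and 3.11% in H1ES cells (1.85 to 4.87), and in the TET3 body 0.414% (0.0854 to 1.20) and 3.52% (1.94 to 5.83).

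In the tile of TET3 from 74115001, 9 of 16 tags were unmethylated in HepG2 cells (56.2%, interval 29.9 to 80.2), with an unmethylated tag in each of the 4 cells that held any tag, against 0 of 12 in H1ES cells (interval 0 to 26.5). The DNMT1 start and 2 other tiles were less clear. The DNMT1 start region was unmethylated at 42.4% of 33 tags in HepG2 cells (25.5 to 60.8) and at 34.6% of 26 in H1ES cells (17.2 to 55.7), so the interval of each line takes in the value of the other. The front tile of DNMT3B had 0 unmethylated of 56 tags in HepG2 cells, which allows a share of up to 5.36%, and 1 of 16 in H1ES cells (6.25%, interval 0.158 to 30.2). In the tile of TET3 from 74030001 it was 0 of 52 tags in HepG2 cells and 4 of 27 in H1ES cells (14.8%, interval 4.19 to 33.7). Across the 14 human libraries the cells differed in depth, from 526207 to 2455908 tags in HepG2 cells and from 757767 to 1543724 in H1ES cells.

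**Figure D4:**
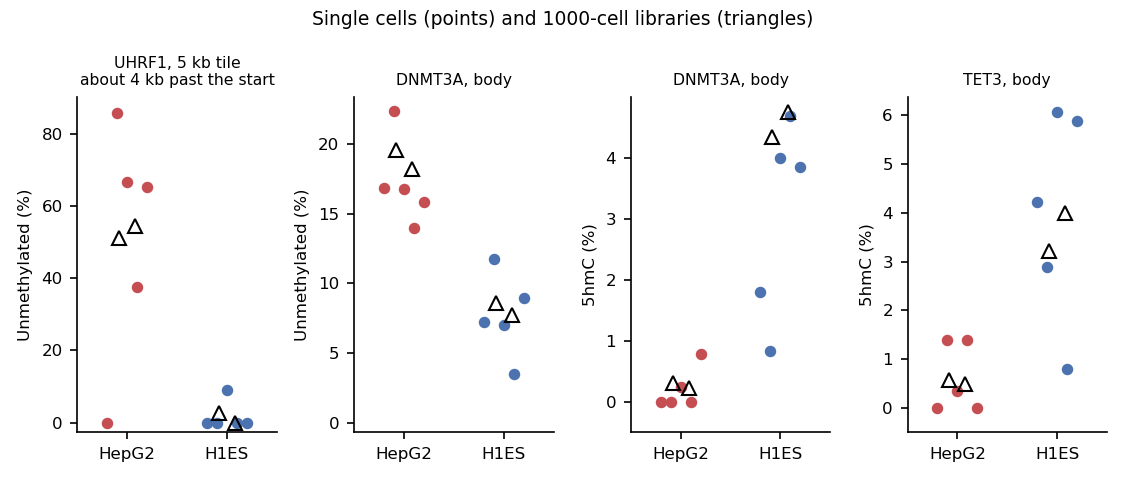
Unmethylated or 5hmC share of tags in each of 5 single cells a line (points) and in the 1000-cell libraries (triangles), HepG2 left of H1ES, for the UHRF1 tile, the DNMT3A body and the TET3 body. In the DNMT3A body the cells of the lines do not overlap in the unmethylated share, at 14% to 22.4% in HepG2 and 3.51% to 11.8% in H1ES.

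The wider machinery was a list of 41 partner genes. Of the 26 bodies tested, 1 rose in 5mC, 8 fell and 17 did not pass, against 2.72% rising and 51.8% falling of all bodies, with a median log2 odds of -0.17 against -1.86 over all bodies. Relative to each library, 17 of the 26 rose and 1 fell, against 35.3% and 24.0% of all bodies. The largest fall was in NSD1, a histone methyltransferase whose mark helps place DNMT3A, at 66.4% and 65.2% 5mC in HepG2 against 98.8% and 98.1% in H1ES (log2 odds -5.13 ± 0.25 SE). MBD3, a member of the methyl-binding family, held 84.5% and 86.1% in HepG2, against 98.1% and 98.8% in H1ES (log2 odds -3.37 ± 0.52 SE). The gene that rose was PARP1, a repair factor, at 96.6% and 98.8% in HepG2 against 92.2% and 91.0% in H1ES (adjusted p = 0.00103). In start regions 3 of 20 tested rose and none fell, against 39.5% and 4.15% of all start regions. HELLS, a chromatin remodeller needed for maintenance methylation, was unmethylated at 89.5% and 100% in HepG2, against 58.3% and 52.2% in H1ES (adjusted p = 0.00147). ZBTB4, a methyl-binding zinc finger protein, was unmethylated at 90.9% and 87.5% in HepG2, against 47.6% and 36.4% in H1ES. 5hmC fell in 4 of 25 bodies, against 16.4% of all bodies, and in none of the 25 relative to each library. By log2 odds, the largest fall was in ZBTB38, at 0% and 0% in HepG2, against 3.41% and 3.70% in H1ES. The next was in SETD2, at 0.252% and 0% in HepG2, against 2.44% and 1.15% in H1ES. By share, USP7 fell more than SETD2, at 0.842% and 0.380% in HepG2, against 2.51% and 2.87% in H1ES.

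For 5 members with enough tags, the most similar gene was sought among 2827 by the distance over 12 values, the body 5mC, body unmethylated and start unmethylated shares of the 4 libraries. It was MED1 for DNMT1 (9.26 percentage points), NCBP3 for UHRF1 (7.09), H6PD for DNMT3A (16.7), PRPSAP2 for TET1 (10.7) and USP39 for TET3 (12.4). The other 4 members held too few tags for this.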

How the data were processed

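DNA of 1000 cells or of 1 cell was cut at CCGG sites so that unmethylated, hydroxymethylated and methylated sites received different tags. Bowtie2 2.3.4.1, UMI-tools 0.5.4 and cutadapt 1.5 were used and the build is hg38, per the submitters' processing notes. What each tool did, and how tags were counted, is not given in the sources used here. The deposited tables have no header. Each of 2317745 sites has 3 deposited fraction values, taken as the unmethylated, 5mC and 5hmC share of its tags, and the deposited count of tags. Which fraction is 5mC and which 5hmC is an assignment given for this work and not stated in the files. The 5 mouse libraries were not used.

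Tags of each state were recovered as fraction times count, a whole number within 0.00141. All 71749 CCGG sites of the RefSeq GRCh38.p14 promoter table were found in the deposited tables. Gene spans came from RefSeq and strands from the promoter table, which gave 15101 of 19126 autosomal protein-coding genes. Tags were summed over bodies, start regions, sites and tiles of 5000 bp. The tags of 1 state against the others were tested with the quasi-likelihood test of edgeR 4.0.16 under R 4.3.3, with library as a term and p-values adjusted by Benjamini-Hochberg (0.05), on all features with at least 20 tags (bodies) or 10 tags (start regions, sites, tiles) in every library. Features without a tag of the tested state, or of the other states, in any library were not tested. A log2 odds fitted where a line has no tag of a state depends on the prior count and is no bound. The test was also run on simulated counts in which far fewer features changed than in these data, so that run gives no error rate here. DESeq2 1.42.0 and limma 3.58.1 (logit shares, pseudocount 0.5) were alternatives, with other tag minimums and other bounds of bodies and start regions. Further runs left libraries out, added a replicate block, or took odds relative to each library's own odds over all features of that test. Added after seeing the data were the outermost listed start, edgeR's newer dispersion and the tiles.

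Single cells carry exact Clopper-Pearson intervals at 95%, and a share of 0 carries the limit of 3 counts over the total. Tags after PCR need not be independent molecules, so intervals and limits cover counting error only. The members, partner list, markers and tests were chosen with earlier results of these data known. Named are all 9 members. Of the partner list, the 2 largest rises and the 2 largest falls in log2 odds past the threshold are given, with AHCY and USP7 added by share. For each member, of its called sites, up to 2 rises and 2 falls are given, of which the text prints some. Each member's most similar gene is also named. Figures used matplotlib 3.10.9 in Python 3.11.15, and intervals SciPy 1.17.1.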

Additional observations from a re-analysis of the deposited data

Results flagged for a closer look

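In 9 of 45 sets of 4 or 5 single cells, each with at least 10 tags in a gene body, 1 cell stood apart from the others by Dixon's ratio at its 95% critical value (0.829 for 4 cells, 0.710 for 5). In 8 of these sets all other cells were at 0% or 100%, so that 1 or 2 tags set the ratio to its maximum. The usual rate of about 1 in 20 by chance does not apply to such sparse counts, and their number is not read as an excess. In DNMT3B the 5hmC share was 0.769% of 130 tags in HepG2 cell 3 and 3.03% of 33 tags in H1ES cell 3, 1 tag each, against 0% in the other cells of each line. The unmethylated share of that H1ES cell was 0%, against at least 2.94% in the others, which held 1 or 2 such tags each. In TET1 the 5hmC share was 1.16% of 173 tags in HepG2 cell 3, or 2 tags, against 0% in the others. In TET2, HepG2 cell 5 had 98.3% 5mC and 1.69% 5hmC of 59 tags, which is 1 tag of 5hmC, against 100% and 0% in the other 3 cells with enough tags, and H1ES cell 1 had 4.55% 5hmC of 22 tags, 1 tag, against 0%. In UHRF1, HepG2 cell 1 had 2.38% 5hmC of 42 tags, 1 tag, against 0%, and H1ES cell 3 had 1.82% unmethylated of 55 tags, 1 tag, against 0%.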

How the results depend on the processing

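With 2 libraries a line, calls in start regions and at sites moved most. Over the members' bodies and start regions 252 of 294 values kept direction and side of the threshold, and over their called tiles 116 of 144 did. The rest lost the call or gained one, apart from 19 that reversed, and no tile reversed.

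The count of bodies with called 5mC, 5737, stayed within 1.5 times under each alternative run, and over libraries left out it was 5109 to 5355. The count of start regions, 3469, was 1492 at 20 tags, 1316 with 1000 bp on each side and 281 with 500 bp, and 0 to 2498 over libraries left out. It was 0 without H1ES library 1, with 2909 at an unadjusted p under 0.05, and 994 without H1ES library 2. The count of bodies with called 5hmC, 1591, was 850 with the replicate block, 687 with DESeq2, 308 with the newer dispersion, 0 relative to each library (505 at an unadjusted p under 0.05) and 592 to 1264 over libraries left out. The count of sites, 2960, was 57786 at 5 tags, 85 at 20 tags and 0 to 4918 over libraries left out, with 0 without H1ES library 2 (6707 at an unadjusted p under 0.05). The count of tiles, 89345, was 148970 at 5 tags and 30857 at 20. Fewer features reach a higher minimum. The cause of the other changes was not tested.

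Relative to each library, body 5mC reversed in DNMT1 (2.74), DNMT3A (2.22) and UHRF1 (0.81), the unmethylated share of start regions in DNMT3A (-0.18), TET1 (-0.020) and TET2 (-0.77), and body 5hmC in DNMT1 (0.99), DNMT3B (0.47), TET1 (0.22) and UHRF1 (0.75), all as log2 odds. Body 5mC also reversed in DNMT1 with the body from 5000 bp (0.62) and in TET1 with the body from the start (-0.028). With 1 library left out, body 5mC ran from -0.63 to 0.082 in DNMT1 and from -0.73 to 1.61 in TET2, and the unmethylated share of start regions from -1.15 to 1.75 in DNMT3A, from -0.062 to 1.64 in TET1 and from -0.50 to 0.89 in TET2. TET3 reversed around the outermost listed start (-0.55). Of these, the values called in either fit are those of DNMT1, DNMT3A, UHRF1 (body 5mC) and TET3.

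The correlation of same-numbered libraries' deviations from their line's mean was 0.00525, 0.0196 and 0.0252 over features. Counting error in features of few tags can keep such a correlation low, so it does not decide whether the numbers pair the libraries. The replicate block moved the count of bodies with called 5hmC to 850, ended no call in the members' bodies and start regions, and ended 3 tile calls, in TET1 from 68555001 (adjusted p = 0.0677), TET3 from 73980001 (0.107) and UHRF1 from 4910001 (0.0674).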
